A study of Arabidopsis thaliana with 6 samples.

Results

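The comparison described here is that of Arabidopsis thaliana seedlings kept on IAA (indole-3-acetic acid, an auxin that plants make) at 1 nM with seedlings kept on solvent alone, across all genes. Its members were chosen by their labels, and they are 4 of the 6 libraries of the series, 2 with IAA and 2 controls. All seedlings were wild type of the Columbia accession, 4 days old when they were moved to new plates, and were collected after 72 h. The plates held Murashige and Skoog medium with 3% sucrose and 0.8% agar at 23 °C, in days of 16 h light and 8 h dark. The control plates held ethanol at 0.1%, the solvent of both compounds, although the titles of these samples call them untreated. The other 2 libraries came from seedlings on 10 nM melatonin (MT), an indole that plants, like IAA, make from tryptophan. Transcript levels were measured by RNA sequencing of total RNA, as counts of reads per gene. Whether the libraries within a group were made from separate plates or pools of plants is not given in the sources used here. The p-values therefore measure the spread among 6 libraries, and that spread may be technical.

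Auxin acts in the nucleus, where receptors of the TIR1 and AFB family mark Aux/IAA repressors for breakdown and thereby free the auxin response factors. Aux/IAA, GH3, LBD and SAUR genes are induced within minutes to hours of auxin treatment, and several of their products damp the response again. Another set of genes that comes up repeatedly below belongs to the phosphate starvation response. When phosphate is short, the transcription factor PHR1 switches on genes for phosphate uptake, for phosphatases that free phosphate from organic compounds, and for enzymes that replace the phospholipids of membranes with galactolipids and sulfolipids. SPX proteins, which sense the phosphate status through inositol pyrophosphates, hold PHR1 back when phosphate is ample, and their own genes are targets of PHR1.

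Library totals ranged from 36023731 to 38186518 counts in the control, from 43662338 to 46076624 under IAA and from 35953236 to 39528975 under MT. The libraries of a group were 0.896 (control), 0.876 (IAA) and 0.836 (MT) apart in leading log2 distance, a root-mean-square of the largest log2 differences between 2 libraries. Control and IAA libraries were 0.977 to 1.424 apart, so the nearest of them were little farther from each other than libraries of 1 group. IAA replicate 2 was nearer to MT replicate 2 (0.768) than to the other IAA library. The labels give seedlings as the tissue, whereas the design text of the series names rosette leaves. All 18 root markers listed had enough counts to be tested, and their summed level was 422 and 337 CPM (counts scaled to the size of each library) in the control and 383 and 414 CPM with IAA. The 14 shoot and leaf markers summed to 23800 and 24700 CPM in the control and to 18200 and 17400 CPM with IAA. Of both marker lists 0 members were called in edgeR's quasi-likelihood test. An unadjusted p under 0.05 was reached by 3 root markers that were higher, 1 root marker that was lower and 6 shoot markers that were lower. By DESeq2, 3 shoot markers were lower and 0 root markers were called. Over all 21355 genes tested, 1483 were higher and 1564 lower at that unadjusted p, and DESeq2 called 412 higher and 355 lower.

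Of 21355 genes tested, 58 were higher and 13 lower with IAA than in the control at an adjusted p under 0.05 in edgeR's quasi-likelihood test, which is 0.272% and 0.0609% of them. These 71 genes are the ones called below, and a gene is said to have risen or fallen only if it was called. At least a 2-fold change was shown by 38 of those that rose and 4 of those that fell. Among the 21355 genes 91.4% were within 1.5-fold, the quartiles of the log2 fold changes were -0.15 and 0.17, and the median was 0.0004. The IAA libraries were both above both control libraries in 23.6% of genes and both below in 24.8%, which is the background for each statement on groups that did not overlap. All 71 called genes were such genes, and 18 of them overlap another gene model. The overlap is stated below for some of the 18. The others are AT1G27695, MCCA, APE2, UGT74F2, UGP3, ANNAT1, CRK10, OCT1, PP2-B13 and AT4G23000, which can share reads as well. Of the genes tested 3047 had an unadjusted p under 0.05, 1483 higher and 1564 lower. DESeq2 called 412 of the 21355 genes higher and 355 lower. These are the background for each count below at an unadjusted p under 0.05 or by DESeq2. The reach of the test depended on the level: 0.0519% of genes under 1 CPM were called, where the median width of the 95% interval of the log2 fold change was 2.75. Among genes of at least 100 CPM 0.567% were called and the median width was 0.45.

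**Figure D1:**
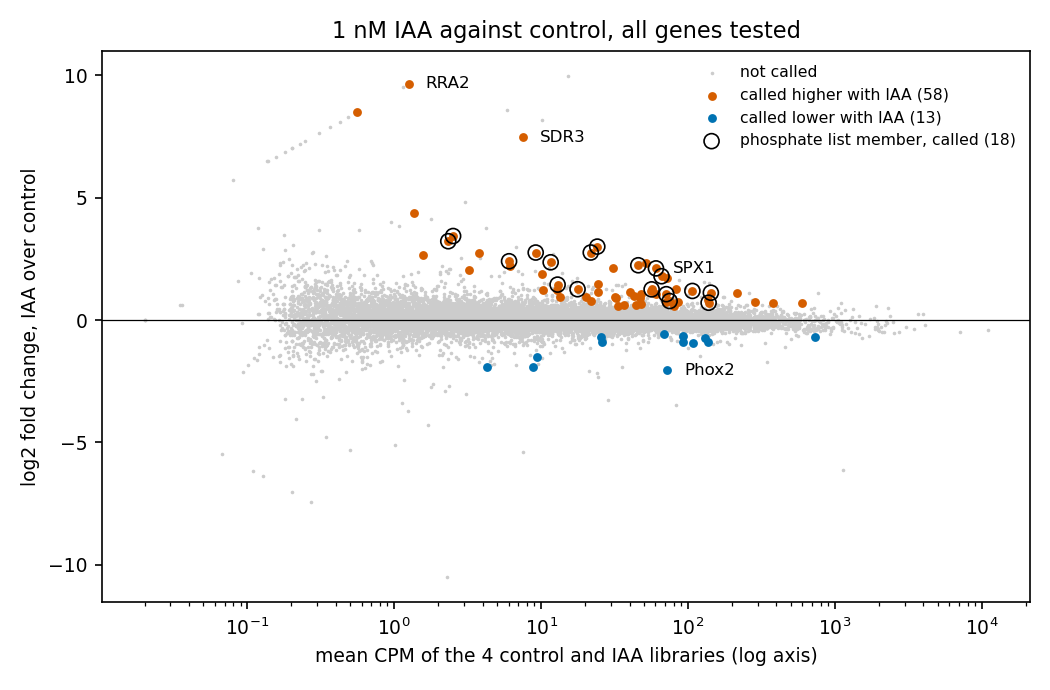
Each point is 1 of the 21355 genes tested, with its mean CPM over the 4 control and IAA libraries (log axis) and its log2 fold change of IAA over control. Orange points are the 58 genes called higher and blue points the 13 called lower, black circles mark the 18 called genes of the phosphate lists, and the diagonal row of grey points at upper left holds genes with 0 counts in the control. Called genes of small fold change lie at high CPM, and Phox2 is the lowest of the blue points.

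Genes of the phosphate starvation response made up 18 of the 58 genes that rose. Of 63 listed and tested genes of this response 18 rose and 0 fell, beside 0.272% and 0.0609% of all genes, and their median log2 fold change was 0.61. The IAA libraries were both above both controls in 73.0% of them and both below in 14.3%. The lists had been drawn up with earlier results of these libraries known, so these counts describe the response and are not independent support for it. The count rests on all 4 libraries: without control replicate 1, control replicate 2 or IAA replicate 2 it was 4, and without IAA replicate 1 it was 8. In whole seedlings, more cells that express a gene and more RNA per cell cannot be told apart.

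Among the signalling genes, SPX proteins and a non-coding RNA rose. SPX1 (AT5G20150) measured 22.1 and 23.5 CPM in the control and 87.6 and 109 CPM with IAA. The libraries of each group lay close together and the groups were far apart, with a log2 fold change of 2.11 ± 0.12 (SE; 95% interval 1.83 to 2.38; adjusted p = 0.00356). The highest adjusted p on leaving out a control or IAA library was 0.0289. SPX3 (AT2G45130), of the same family, measured 1.65 and 3.08 CPM in the control and 13.4 and 18.6 CPM with IAA, with 2.76 ± 0.32 (adjusted p = 0.035). AT4 (AT5G03545) makes a non-coding RNA that resembles the target site of the microRNA miR399 and so protects PHO2 transcripts from it. It measured 73.0 and 57.7 CPM in the control and 138 and 160 CPM with IAA, both IAA libraries being above both controls, with a log2 fold change of 1.19 ± 0.13 (adjusted p = 0.0315). Its relative IPS1 (AT3G09922), which acts the same way, had the same direction but was not called, at 7.32 and 10.6 CPM in the control and 23.8 and 27.9 CPM with IAA (1.53 ± 0.59, adjusted p = 0.32). Its MT libraries were 6.39 and 28.2 CPM, 1 below and 1 above the control range, and all 6 libraries share 1 estimate of the spread.

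The remaining signalling genes did not pass the test. SPX2 (AT2G26660) had 18.9 and 18.5 CPM in the control and 26.9 and 30.2 CPM with IAA (0.61 ± 0.10, adjusted p = 0.0699). PHO2 (AT2G33770), a ubiquitin-conjugating enzyme that removes phosphate transporters, had 112 and 110 CPM in the control and 130 and 143 CPM with IAA (0.30 ± 0.09, adjusted p = 0.228). HHO2 (AT1G68670), a repressor-type transcription factor, had 0.31 ± 0.08 (adjusted p = 0.192). For PHR1 (AT4G28610) itself the libraries were 57.2 and 54.6 CPM in the control and 48.0 and 52.7 CPM with IAA, with a log2 fold change of -0.15 ± 0.08 (adjusted p = 0.443), and its relative PHL1 (AT5G29000) had -0.17 ± 0.09. The transcripts of both regulators were thus within a small distance of the control. Over the 17 signalling genes tested 3 rose, 0 fell and the median was 0.28.

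In the transport list PHT1;4 (AT2G38940), a high-affinity phosphate importer, was the gene that rose, of 12 tested. It measured 53.0 and 39.5 CPM in the control and 95.9 and 96.3 CPM with IAA, with no overlap and a log2 fold change of 1.06 ± 0.13 (adjusted p = 0.0414). The median of the list was 0.79, and the IAA libraries were both above the controls in 83.3% of its genes. PHT1;1 (AT5G43350) had 97.4 and 81.5 CPM in the control and 122 and 117 CPM with IAA (0.42 ± 0.10, adjusted p = 0.177). PHO1 (AT3G23430), which loads phosphate into the xylem, had 84.9 and 65.8 CPM in the control and 106 and 103 CPM with IAA (0.47 ± 0.12, adjusted p = 0.197). Neither was called, although in both genes the groups did not overlap. PHF1 (AT3G52190), which lets PHT1 proteins leave the endoplasmic reticulum, had 20.6 and 24.0 CPM in the control and 32.4 and 30.8 CPM with IAA (0.50 ± 0.12, adjusted p = 0.175). The importer PHT1;9 (AT1G76430) had 1.46 ± 0.37 (adjusted p = 0.194) and PHT1;5 (AT2G32830) had 1.07 ± 0.30 (adjusted p = 0.218). PHT2;1 (AT3G26570), the chloroplast importer, pointed the other way at 153 and 171 CPM in the control and 125 and 114 CPM with IAA (-0.43 ± 0.13, adjusted p = 0.232).

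Further importers were near absent from the control libraries. PHT1;7 (AT3G54700) had 0 counts in both, 42 in the IAA libraries together and 47 in the MT libraries. Taking 3 counts over the control group as the limit that a count of 0 allows, it was at least 11.6-fold higher with IAA, with an adjusted p of 0.108. PHT1;8 (AT1G20860) had 2 counts in the control and 21 with IAA, a ratio of 8.68 (95% counting interval 2.12 to 76.4, adjusted p = 0.299). PHT1;2 (AT5G43370) measured 0.028 and 1.12 CPM in the control and 12.8 and 3.05 CPM with IAA. The 95% interval of its log2 fold change, from edgeR's test, ran from 1.3 to 6.21 (adjusted p = 0.217). None of these importers was called. Counting intervals, as given for PHT1;8, cover counting error only.

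Of 18 phosphatase and nuclease genes tested 7 rose and 0 fell, with a median of 0.86. PAP5 (AT1G52940), a purple acid phosphatase, measured 0.559 and 0.295 CPM in the control and 3.61 and 5.61 CPM with IAA (3.43 ± 0.39, adjusted p = 0.035). PEPC1 (AT1G17710), a phosphatase of phosphocholine and phosphoethanolamine, measured 5.53 and 5.2 CPM in the control and 35.0 and 50.8 CPM with IAA (3.00 ± 0.23, adjusted p = 0.0217). PS2 (AT1G73010), which splits pyrophosphate, measured 19.8 and 12.3 CPM in the control and 64.2 and 87.2 CPM with IAA (2.24 ± 0.24, adjusted p = 0.028). In each of the 3 genes the lower IAA library was several-fold above the higher control library. Among the other purple acid phosphatases PAP24 (AT4G24890) rose by 2.40 ± 0.19 and PAP14 (AT2G46880) by 2.36 ± 0.26, from levels of 1.76 to 3.97 CPM in the control libraries. PAP17 (AT3G17790) measured 35.5 and 31.3 CPM in the control and 73.8 and 85.4 CPM with IAA (1.25 ± 0.10, adjusted p = 0.0217), and the secreted enzyme PAP12 (AT2G27190) measured 56.5 and 54.1 CPM in the control and 87.4 and 102 CPM with IAA (0.77 ± 0.09, adjusted p = 0.0393). PAP24 and PAP17 overlap other gene models, with which they can share reads.

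The major secreted and vacuolar acid phosphatase PAP26 (AT5G34850) differed little, at 258 and 249 CPM in the control and 243 and 252 CPM with IAA (-0.04 ± 0.08). PAP10 (AT2G16430), active at the root surface, had 0.39 ± 0.09 (adjusted p = 0.178), and PAP1 (AT1G13750) had 15.5 and 12.9 CPM in the control and 24.6 and 26.3 CPM with IAA (0.85 ± 0.12, adjusted p = 0.0568). PAP7 (AT2G01880) had 0.68 ± 0.16 (adjusted p = 0.174). Genes at very low counts pointed up without passing. PAP23 (AT4G13700) had 0 counts in the control and 29 with IAA, at least 7.99-fold higher against the limit of 3 counts over the group (adjusted p = 0.132). PAP25 (AT4G36350) had 6 counts in the control and 99 with IAA, a ratio of 13.6 (95% counting interval 6.05 to 38.1, adjusted p = 0.168). RNS1 (AT2G02990), a ribonuclease, had 4.84 and 3.59 CPM in the control and 6.81 and 8.66 CPM with IAA (0.88 ± 0.57, adjusted p = 0.533).

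Of 16 genes of lipid replacement tested 7 rose and 0 fell, with a median of 0.91. The phosphodiesterase gene GDPD1 (AT3G02040), whose product cuts glycerophosphodiesters left over from phospholipids, measured 29.4 and 29.9 CPM in the control and 95.1 and 110 CPM with IAA. Its log2 fold change was 1.79 ± 0.09 (95% interval 1.56 to 2.01, adjusted p = 0.00356), and it kept its call with each library left out. GDPD6 (AT5G08030) of the same family measured 0.391 and 0.509 CPM in the control and 4.46 and 3.97 CPM with IAA (3.22 ± 0.30, adjusted p = 0.0217). Both genes overlap another gene model. NPC4 (AT3G03530), a phospholipase that removes the head group of phospholipids, measured 7.83 and 6.08 CPM in the control and 18.2 and 19.7 CPM with IAA (1.45 ± 0.19, adjusted p = 0.0425).

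Several genes of enzymes that make the replacing lipids also rose, while MGD1, DGD1 and DGD2 were not called. MGDC (AT2G11810) (MGD3) and MGD2 (AT5G20410) are the galactolipid synthases of the phosphate-responsive type. MGDC measured 5.93 and 5.3 CPM in the control and 31.5 and 44.4 CPM with IAA (2.76 ± 0.23, adjusted p = 0.0217), and MGD2 measured 10.1 and 10.8 CPM in the control and 21.5 and 28.4 CPM with IAA (1.26 ± 0.15, adjusted p = 0.0388). MGD1 (AT4G31780), the main synthase of the chloroplast, had -0.03 ± 0.26. For sulfolipid synthesis SQD1 (AT4G33030) measured 103 and 107 CPM in the control and 165 and 178 CPM with IAA (0.71 ± 0.09, adjusted p = 0.0397) and SQD2 (AT5G01220) measured 93.5 and 87.2 CPM in the control and 184 and 207 CPM with IAA (1.12 ± 0.14, adjusted p = 0.0397). UGP3 (AT3G56040), outside the lists, makes UDP-glucose for the same pathway in the chloroplast and measured 62.9 and 64.6 CPM in the control and 106 and 108 CPM with IAA (0.75 ± 0.08, adjusted p = 0.028). These 5 called genes had groups without overlap, and their rises ran from 0.71 to 2.76 on the log2 scale.

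Members of the lipid list that were not called included PLDP2 (AT3G05630), phospholipase D zeta, at 16.3 and 16.0 CPM in the control and 31.1 and 46.6 CPM with IAA (1.27 ± 0.18, adjusted p = 0.0568). GDPD5 (AT1G74210) had 0.61 ± 0.12 (adjusted p = 0.126), GDPD3 (AT5G43300) had 1.44 ± 0.29 (adjusted p = 0.129) and GDPD2 (AT5G41080) had -0.25 ± 0.09 (adjusted p = 0.302). The digalactolipid synthases DGD1 (AT3G11670) and DGD2 (AT4G00550) had 0.40 ± 0.10 (adjusted p = 0.179) and 0.10 ± 0.15. Outside the lists G3Pp1 (AT3G47420), a putative carrier of glycerol-3-phosphate, rose from 38.9 and 39.2 CPM to 72.5 and 90.5 CPM (1.06 ± 0.12, adjusted p = 0.0303). The numbers of members called without 1 library were lowest without a control library or IAA replicate 2. Of the 7 lipid genes 1 was called without control replicate 1 and 1 without control replicate 2, 2 without IAA replicate 2 and 4 without IAA replicate 1. Of the 7 phosphatases the corresponding numbers were 1, 1, 1 and 3.

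**Figure D2:**
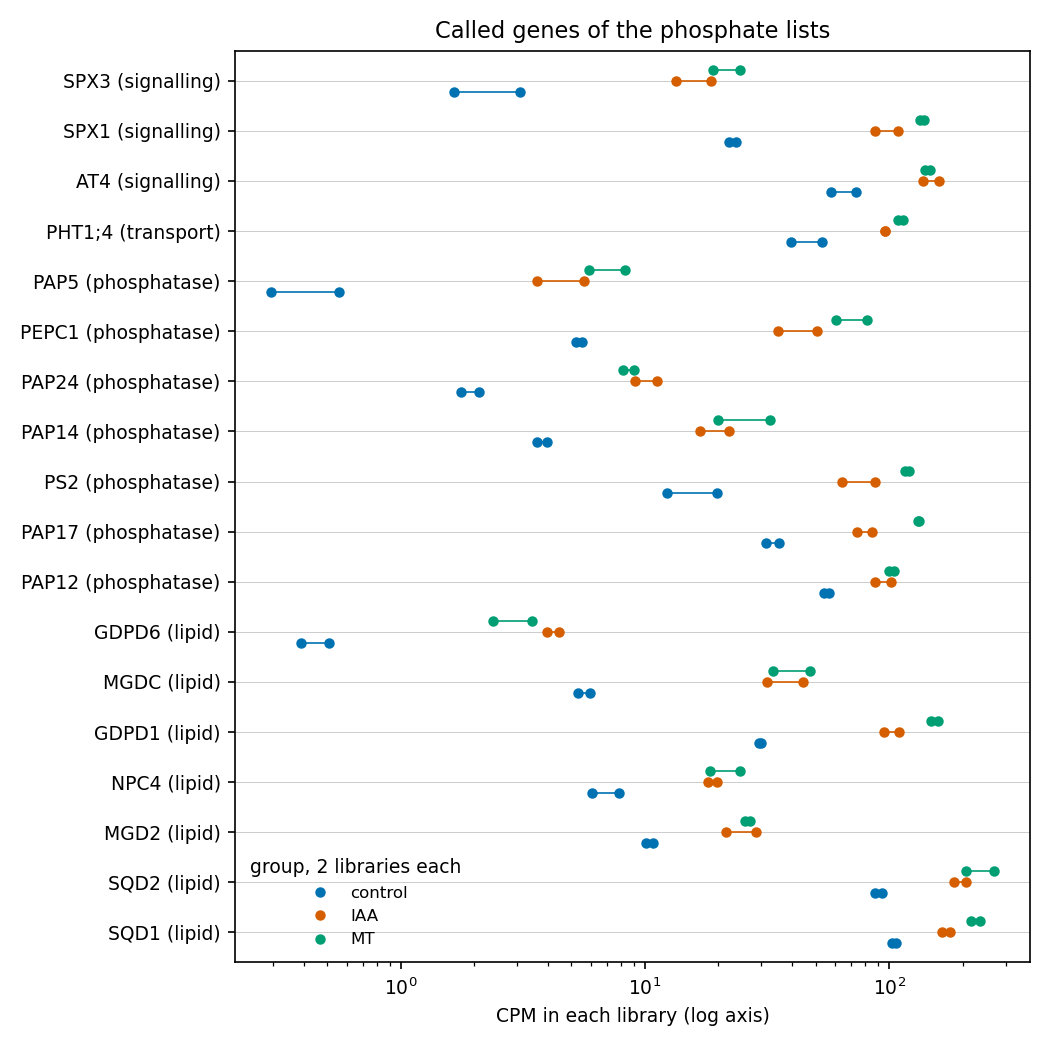
CPM in each library (log axis) of the 18 called genes of the phosphate lists, ordered by role. Blue points are the 2 control, orange the 2 IAA and green the 2 MT libraries, and lines join the libraries of a group. In each row both orange points lie to the right of both blue points, by the widest margin in PAP5 and GDPD6.

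Genes that respond to low oxygen had the highest median of the 30 lists, 1.38 over 24 genes tested, while 2 rose and 0 fell. The IAA libraries were both above both controls in 91.7% of them, beside 23.6% of all genes. SUS4 (AT3G43190), a sucrose synthase that feeds glycolysis when oxygen is low, measured 20.6 and 14.0 CPM in the control and 80.0 and 91.9 CPM with IAA (2.32 ± 0.21, adjusted p = 0.0217). SAD6 (AT1G43800), a fatty acid desaturase of the hypoxia response, measured 40.5 and 26.9 CPM in the control and 113 and 108 CPM with IAA (1.71 ± 0.18, adjusted p = 0.0283). Among genes with counts, AT3G43110, of no described function, was next to SUS4 in the annotation, genes without counts being passed over. AT3G43110 rose as well, from 4.84 and 3.88 to 13.0 and 18.6 CPM (1.86 ± 0.25, adjusted p = 0.048).

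Several core genes of the same list just missed the threshold. The haemoglobin gene HB1 (AT2G16060) had 20.5 and 18.3 CPM in the control and 46 and 57.0 CPM with IAA (1.41 ± 0.19, adjusted p = 0.0506), and HUP6 (AT3G27220) had 1.22 ± 0.17 (adjusted p = 0.052). PCO2 (AT5G39890), whose product uses oxygen to mark the regulators of the response for breakdown, had 7.43 and 8.68 CPM in the control and 22 and 26.9 CPM with IAA (1.60 ± 0.23, adjusted p = 0.0558). In the fermentation pathway PDC1 (AT4G33070), pyruvate decarboxylase, had 35.7 and 29.6 CPM in the control and 97.6 and 122 CPM with IAA (1.75 ± 0.25, adjusted p = 0.0558) and ADH1 (AT1G77120), alcohol dehydrogenase, had 45.4 and 38.2 CPM in the control and 113 and 148 CPM with IAA (1.64 ± 0.26, adjusted p = 0.0699). In all 4 genes given with their levels the groups did not overlap. HRE1 (AT1G72360), a transcription factor of the response, was near the control at 14.1 and 13.1 CPM in the control and 14.3 and 16.8 CPM with IAA (0.19 ± 0.22). How many of the 24 genes were called depended on the libraries in the fit: 12 without either MT library or with the control and IAA libraries alone, 2 without either control library, and 0 without either IAA library. DESeq2 called 17.

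Of 21 ethylene genes tested 2 rose and 0 fell, with a median of 0.14. ACO1 (AT2G19590), of the last step of ethylene synthesis, measured 14.8 and 11.5 CPM in the control and 36.1 and 35.8 CPM with IAA (1.45 ± 0.17, adjusted p = 0.035). The receptor gene ETR2 (AT3G23150), itself induced by ethylene, measured 20.9 and 22.4 CPM in the control and 41.7 and 42.6 CPM with IAA (0.96 ± 0.08, adjusted p = 0.0217). Without any 1 of the 4 control and IAA libraries neither was called. The receptor genes ETR1 (AT1G66340) and ERS1 (AT2G40940) had 39.1 and 39.2 CPM in the control and 38.9 and 39.0 CPM with IAA and a log2 fold change of 0.28 ± 0.11 (adjusted p = 0.32), respectively. EBF2 (AT5G25350), which degrades the ethylene transcription factors, had 85.9 and 76.3 CPM in the control and 140 and 98.8 CPM with IAA (0.56 ± 0.26, adjusted p = 0.396). EIN2 (AT5G03280), the membrane protein that passes the signal on, had 0.19 ± 0.09 (adjusted p = 0.413), and the synthesis gene ACS7 (AT4G26200) had 0.33 ± 0.22 (adjusted p = 0.533).

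Genes of the light-harvesting antennae of photosystem II moved in both directions. Of 21 antenna genes tested 3 rose and 1 fell, with a median of 0.15. LHCB2.3 (AT3G27690) measured 24.0 and 26.0 CPM in the control and 61.1 and 50.0 CPM with IAA (1.15 ± 0.11, adjusted p = 0.0217). LHCB1.2 (AT1G29910) measured 122 and 150 CPM in the control and 323 and 265 CPM with IAA (1.11 ± 0.14, adjusted p = 0.0397). LHCB3 (AT5G54270) measured 280 and 297 CPM in the control and 488 and 447 CPM with IAA (0.70 ± 0.09, adjusted p = 0.0414). These are proteins of the major trimeric antenna. LHCB4.3 (AT2G40100), an isoform of the minor antenna protein CP29, fell instead, from 124 and 116 to 64.9 and 62.7 CPM (-0.91 ± 0.08, adjusted p = 0.0217). LHCB1 genes are near-identical copies among which reads can be split, so the single values of LHCB1.2, LHCB1.1 (AT1G29920) (0.46 ± 0.09, adjusted p = 0.125), LHB1B2 (AT2G34420) (0.50 ± 0.10, adjusted p = 0.132) and LHCB1.4 (AT2G34430) (0.87 ± 0.18, adjusted p = 0.141) are uncertain. LHCB2.3 and LHCB3 overlap other gene models. LHCA4 (AT3G47470), of the photosystem I antenna, had 0.36 ± 0.08 (adjusted p = 0.172). Without IAA replicate 2 the list had 1 called gene, and without any of the other control and IAA libraries it had 0.

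The photosystem and Rubisco list, by contrast, held no called gene. Of its 30 genes tested 0 passed edgeR's quasi-likelihood test, 0 were higher and 11 lower at an unadjusted p under 0.05, and DESeq2 called 0 higher and 5 lower, with a median of -0.17. RBCS1A (AT1G67090), a Rubisco small subunit gene, had 12200 and 12700 CPM in the control and 9630 and 9180 CPM with IAA (-0.41 ± 0.07, adjusted p = 0.0756). RCA (AT2G39730), Rubisco activase, had 8140 and 8430 CPM in the control and 5800 and 5870 CPM with IAA (-0.51 ± 0.12, adjusted p = 0.172). The groups did not overlap in either. RBCS1B (AT5G38430) had 5290 and 3500 CPM in the control and 3560 and 4160 CPM with IAA, where the control libraries spanned both IAA libraries, and PSBR (AT1G79040), of photosystem II, had 3950 and 3790 CPM in the control and 3030 and 2990 CPM with IAA (-0.36 ± 0.12, adjusted p = 0.255). FBA2 (AT4G38970), an aldolase of the chloroplast, had 2910 and 3060 CPM in the control and 2130 and 2000 CPM with IAA. RBCS genes are near-identical copies as well. Of 58 chloroplast-encoded genes 0 were called by edgeR's test or by DESeq2 and 5 were lower at an unadjusted p under 0.05, with summed levels of 103 and 189 CPM in the control and 114 and 109 CPM with IAA.

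APE2 (AT5G46110), the carrier that exports triose phosphate from the chloroplast in exchange for phosphate, fell. It measured 875 and 946 CPM in the control and 562 and 551 CPM with IAA, with no overlap (-0.71 ± 0.09, adjusted p = 0.0397). SWEET2 (AT3G14770), a sugar carrier of the vacuole membrane, fell from 32.4 and 35.2 to 18 and 18.2 CPM (-0.90 ± 0.11, adjusted p = 0.0397). Of 22 genes induced by carbon starvation 0 rose and 1 fell, with a median of -0.40, and the IAA libraries were both below both controls in 63.6% of them, beside 24.8% of all genes. The gene that fell was MCCA (AT1G03090), of leucine breakdown, at 107 and 118 CPM in the control and 69.2 and 74.9 CPM with IAA (-0.64 ± 0.08, adjusted p = 0.0397). It was not called without any 1 of the control and IAA libraries.

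Other genes of the carbon starvation list pointed the same way without passing. DIN10 (AT5G20250) had 2000 and 2130 CPM in the control and 1260 and 1390 CPM with IAA (-0.64 ± 0.09, adjusted p = 0.0595). AKINBETA1 (AT5G21170), a subunit of the SnRK1 energy-sensing kinase, had 96.4 and 114 CPM in the control and 69.5 and 69.8 CPM with IAA (-0.60 ± 0.09, adjusted p = 0.0724). IVD (AT3G45300), of branched-chain amino acid breakdown, had 104 and 96.9 CPM in the control and 65.2 and 73.1 CPM with IAA (-0.54 ± 0.09, adjusted p = 0.0865), as did BCAT-2 (AT1G10070) with -0.79 ± 0.16 (adjusted p = 0.141). In the first 3 both IAA libraries were below both controls. ASN1 (AT3G47340), asparagine synthetase, had 152 and 204 CPM in the control and 55 and 74.7 CPM with IAA (-1.45 ± 0.33, adjusted p = 0.165). DESeq2 called 10 of the 22 genes lower.

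**Figure D3:**
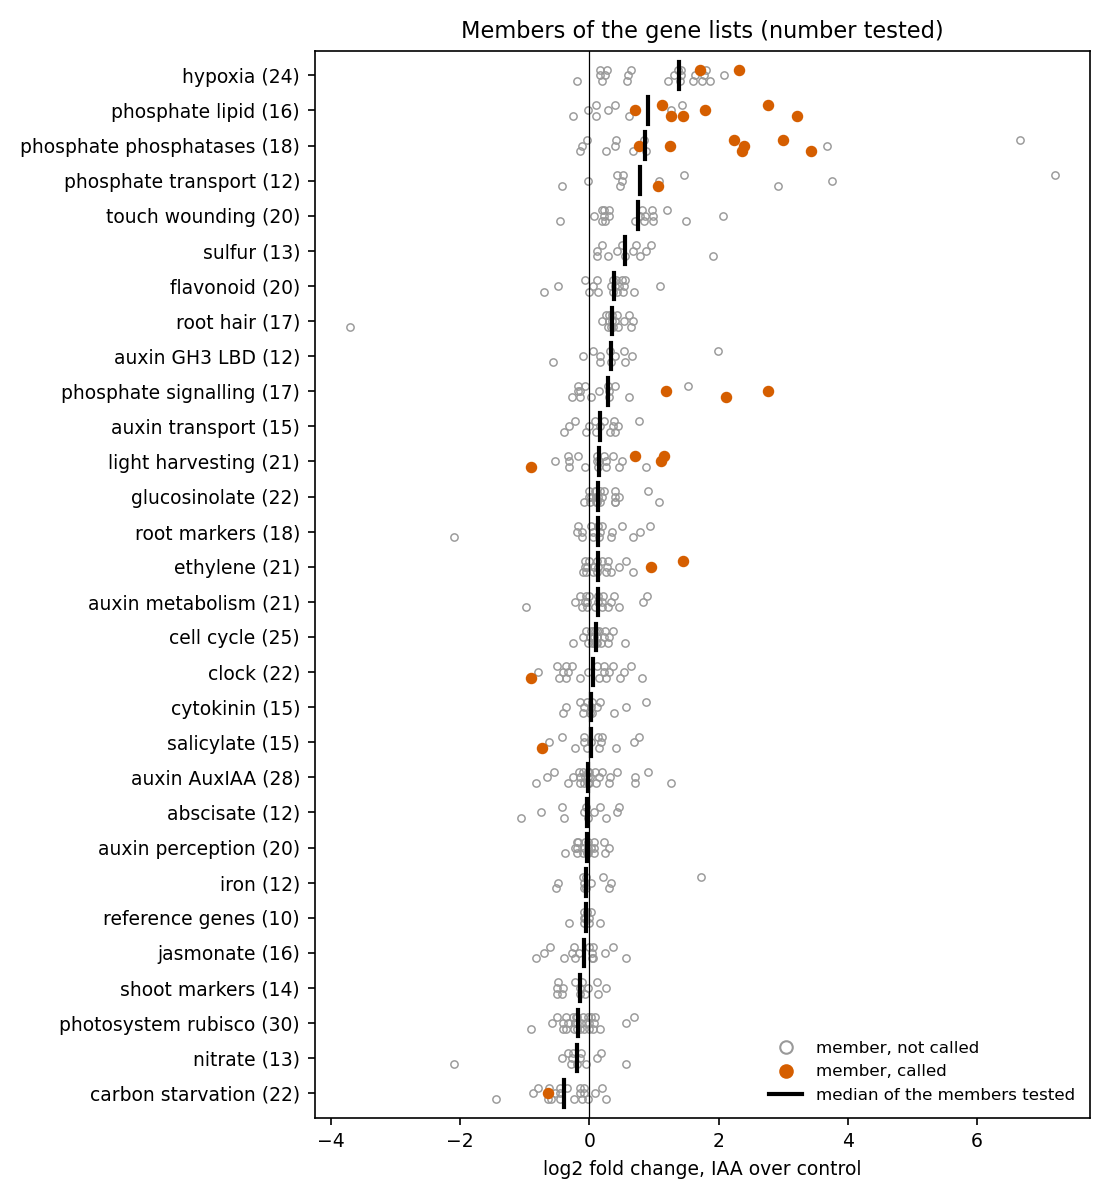
Log2 fold change of IAA over control for the tested members of 30 gene lists, ordered by the median (black bar), with the number tested in brackets. Filled orange points are called members and open points are not called. Medians run from 1.38 (hypoxia) to -0.40 (carbon starvation), and the 5 auxin lists hold no filled point.

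The largest fall among called genes was that of Phox2 (AT1G62390) (CLUMPED CHLOROPLASTS 1), whose product is needed for the separation of chloroplasts. It measured 106 and 127 CPM in the control and 27.6 and 28.8 CPM with IAA, so that the IAA libraries agreed closely and lay far below both controls. The log2 fold change was -2.05 ± 0.10 (95% interval -2.29 to -1.80, adjusted p = 0.00356), and the highest adjusted p on leaving out a control or IAA library was 0.0301. With SPX1 and GDPD1 it is 1 of 3 genes that kept their calls in each of these fits. ATN (AT3G05330) (TANGLED), which guides the plane of cell division, fell from 6.93 and 6.67 to 2.07 and 1.49 CPM (-1.93 ± 0.20, adjusted p = 0.028). AT1G27695, a glycine-rich protein gene, fell from 15.1 and 12.9 to 3.13 and 4.2 CPM (-1.93 ± 0.22, adjusted p = 0.0334). AT3G50560, a Rossmann-fold protein gene, fell from 11.9 and 16.0 to 4.51 and 5.28 CPM (-1.51 ± 0.19, adjusted p = 0.0397). In these 4 genes the higher IAA library was at less than the lower control library by a wide margin.

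The other falls were smaller. RVE2 (AT5G37260), a MYB factor related to the clock genes CCA1 and LHY, measured 174 and 183 CPM in the control and 86.9 and 104 CPM with IAA (-0.91 ± 0.11, adjusted p = 0.0397). AT3G11930, an adenine nucleotide hydrolase-like protein gene, measured 153 and 130 CPM in the control and 68.3 and 77.6 CPM with IAA (-0.96 ± 0.12, adjusted p = 0.0397). UGT74F2 (AT2G43820), which adds glucose to salicylate, measured 168 and 161 CPM in the control and 90.4 and 106 CPM with IAA (-0.74 ± 0.10, adjusted p = 0.0498). The call of UGT74F2 was lost under 2 other scalings of the libraries. MES16 (AT4G16690), a methyl esterase, fell from 31.6 and 31.8 to 19.8 and 19.0 CPM (-0.71 ± 0.09, adjusted p = 0.0481), and AT1G54740, of the FANTASTIC FOUR-like family, from 80.0 and 83.4 to 54.0 and 56.6 CPM (-0.56 ± 0.07, adjusted p = 0.0397). Over all genes, 1 was called lower without control replicate 1, 2 without control replicate 2 and 8 without either IAA library.

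Among the genes of highest CPM that rose, ANNAT1 (AT1G35720), annexin 1, measured 471 and 435 CPM in the control and 706 and 756 CPM with IAA (0.69 ± 0.09, adjusted p = 0.0493). GASA4 (AT5G15230), a gibberellin-responsive peptide gene, measured 217 and 208 CPM in the control and 349 and 369 CPM with IAA (0.76 ± 0.09, adjusted p = 0.0352). RBOHD (AT5G47910), the NADPH oxidase of the plasma membrane that makes reactive oxygen in defence and stress, measured 98.1 and 99.6 CPM in the control and 175 and 172 CPM with IAA (0.81 ± 0.08, adjusted p = 0.0217). In all 3 genes the groups did not overlap. AT1G05250, a peroxidase gene, measured 33.8 and 28.4 CPM in the control and 65.7 and 63.9 CPM with IAA (1.06 ± 0.10, adjusted p = 0.0217), and newGene_709, an entry that the authors' table names as a new gene, measured 1.87 and 2.49 CPM in the control and 9.06 and 11.3 CPM with IAA (2.22 ± 0.20, adjusted p = 0.0217). It was the 1 called entry among 281 new-gene entries tested.

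Receptor-like kinases, carriers and genes of little-known function made up much of the rest. The cysteine-rich receptor-like kinases CRK10 (AT4G23180) and CRK41 (AT4G00970) rose by 0.89 ± 0.10 and 0.95 ± 0.11 on the log2 scale. Of carriers, OCT1 (AT1G73220), for carnitine and organic cations, rose by 2.03 ± 0.25, UCP5 (AT2G22500), a mitochondrial dicarboxylate carrier, by 0.62 ± 0.08 and KUP9 (AT4G19960), a potassium carrier, by 0.60 ± 0.08. PP2-B13 (AT1G56240), a phloem protein, rose by 2.67 ± 0.28, and the phosphatase genes PFA-DSP4 (AT4G03960) and AT4G23000, not in the phosphate lists, by 1.24 ± 0.13 and 1.21 ± 0.11. The bromodomain protein gene GTE4 (AT1G06230) rose by 1.00 ± 0.12, the NAC factor TIP (AT5G24590) by 0.56 ± 0.07 and the methionine sulfoxide reductase PMSR2 (AT5G07460) by 0.77 ± 0.10. AT3G25240 rose by 2.74 ± 0.28 and AT5G20790 by 2.13 ± 0.20, both of no described function, and AT5G14330 by 0.64 ± 0.08. Genes of small or secreted proteins rose by 0.89 to 1.26, namely AT2G43535, AT5G19240, AT1G07135, AT2G19970 and AT5G01870. Adjusted p-values of these genes ran from 0.0217 to 0.048, and each lost its call without at least 1 control or IAA library.

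A few genes were near absent from one group. RRA2 (AT1G75110), an arabinosyltransferase of cell wall proteins, had 0 counts in both controls, 90 and 143 counts under IAA and 58 and 78 counts under MT. It was at least 64.2-fold higher with IAA against 3 counts over the control group (adjusted p = 0.0217). It overlaps JAC1 (AT1G75100) on the same strand, which had 41.8 and 42.8 CPM in the control and 30.2 and 33.7 CPM with IAA. Summed, RRA2 and JAC1 had 41.8 and 42.8 CPM in the control and 32.3 and 36.7 CPM with IAA. The assignment of reads between them is uncertain, and a rise of RRA2 cannot be told apart from another split of the reads. RRA1 (AT1G75120), next to RRA2 among genes with counts, carries the same product name. RRA1 had 32 and 232 counts in the control, which are not alike, 341 and 335 with IAA and 7 and 25 with MT. AT1G13410, a repeat protein gene, had 0 counts in both controls and 52 and 51 with IAA, at least 28.4-fold higher (adjusted p = 0.0369). SDR3 (AT2G47130), a short-chain dehydrogenase gene, had 3 counts in each control library and 899 and 459 with IAA, a ratio of 187 (95% counting interval 85.8 to 511, adjusted p = 0.028). Its near relative SDR5 (AT2G47140) had 310 and 219 counts in the control, 385 and 1210 with IAA and 222 and 981 with MT, which are not alike between the libraries of a group. AT5G01881 had 5 and 4 counts in the control and 111 and 129 with IAA (4.37 ± 0.55, adjusted p = 0.0397). It overlaps AT5G01880 on the same strand, which stood the other way, at 5.7 and 3.62 CPM in the control and 2.84 and 2.61 CPM with IAA (-0.77 ± 0.25, adjusted p = 0.255). Summed, AT5G01881 and AT5G01880 had 5.84 and 3.72 CPM in the control and 5.34 and 5.32 CPM with IAA, so the groups overlapped, and a rise of AT5G01881 cannot be told apart from another split of the reads.

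No gene of the auxin lists was called. Of 96 tested genes of auxin response, transport, synthesis, inactivation and perception 0 rose and 0 fell in edgeR's quasi-likelihood test. At an unadjusted p under 0.05, 10 were higher and 8 lower, beside 1483 and 1564 of all 21355 genes. DESeq2 called 3 higher and 0 lower, beside 412 and 355 of all 21355. The median log2 fold change of the 96 genes was 0.06. The IAA libraries were both above the controls in 30.2% and both below in 24.0% of the 96, beside 23.6% and 24.8% of all genes. The lowest adjusted p, 0.136, was that of IAA31 (AT3G17600), an Aux/IAA gene, at 0.922 and 0.884 CPM in the control and 2.12 and 2.23 CPM with IAA (1.26 ± 0.26, 95% interval 0.65 to 1.88). Of 64 SAUR genes tested, matched by their product names, 0 were called, 4 were higher and 2 lower at an unadjusted p under 0.05, DESeq2 called 0, and the median was 0.01.

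Among the Aux/IAA repressor genes IAA1 (AT4G14560) had 16.0 and 16.0 CPM in the control and 14.6 and 19.2 CPM with IAA (0.08 ± 0.15, 95% interval -0.28 to 0.43). IAA19 (AT3G15540) had 11.8 and 14.9 CPM in the control and 7.51 and 10.7 CPM with IAA (-0.55 ± 0.21, interval -1.06 to -0.05, adjusted p = 0.319). IAA1 overlapped between the groups, whereas both IAA libraries were below both controls for IAA19. IAA29 (AT4G32280) had 2.91 and 2.38 CPM in the control and 3.36 and 5.21 CPM with IAA (0.70 ± 0.34, interval -0.11 to 1.51, adjusted p = 0.415), and IAA5 (AT1G15580) had 0.531 and 1.2 CPM in the control and 0.879 and 1.24 CPM with IAA with an interval of -0.79 to 1.41, too wide to place it. Of 28 Aux/IAA genes tested 1 was higher and 3 lower at an unadjusted p under 0.05, DESeq2 called 1 higher, and the median was -0.02. Of the GH3 enzymes, which conjugate IAA to amino acids, GH3.3 (AT2G23170) had 39.7 and 39.7 CPM in the control and 21.6 and 32.2 CPM with IAA (-0.56 ± 0.18, interval -1.0 to -0.13, adjusted p = 0.262). GH3.5 (AT4G27260) had 25.6 and 29.0 CPM in the control and 37.7 and 31.3 CPM with IAA (0.34 ± 0.11, interval 0.07 to 0.61, adjusted p = 0.273). The groups did not overlap in either, with GH3.3 lower and GH3.5 higher.

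LBD16 (AT2G42430) and LBD29 (AT3G58190), which act in the start of lateral roots, had log2 fold changes of 0.16 ± 0.30 (interval -0.57 to 0.88) and 0.39 ± 0.42 (interval -0.62 to 1.39), from levels under 4 CPM in each control and IAA library. The efflux carrier gene PIN2 (AT5G57090), of the root tip, had 56.4 and 37.1 CPM in the control and 59.9 and 61.9 CPM with IAA (0.38 ± 0.18, interval -0.05 to 0.82), and PIN7 (AT1G23080) had 61.8 and 66.9 CPM in the control and 89.8 and 71.3 CPM with IAA (0.32 ± 0.15, interval -0.02 to 0.67). The receptor gene TIR1 (AT3G62980) had 125 and 141 CPM in the control and 114 and 118 CPM with IAA (-0.20 ± 0.08, interval -0.40 to 0.00). The response factors ARF7 (AT5G20730) and ARF19 (AT1G19220) had -0.09 ± 0.07 and 0.07 ± 0.08, with intervals of -0.26 to 0.08 and -0.13 to 0.26. For TIR1, ARF7 and ARF19 a change of 1.5-fold in either direction lies outside the interval. TAA1 (AT1G70560), of auxin synthesis, had 11.5 and 9.4 CPM in the control and 11.5 and 13.8 CPM with IAA (0.28 ± 0.20, interval -0.20 to 0.76), and DAO1 (AT1G14130), which oxidises IAA, had 10.7 and 10.7 CPM in the control and 10.4 and 11.0 CPM with IAA (0.00 ± 0.13, interval -0.30 to 0.30).

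**Figure D4:**
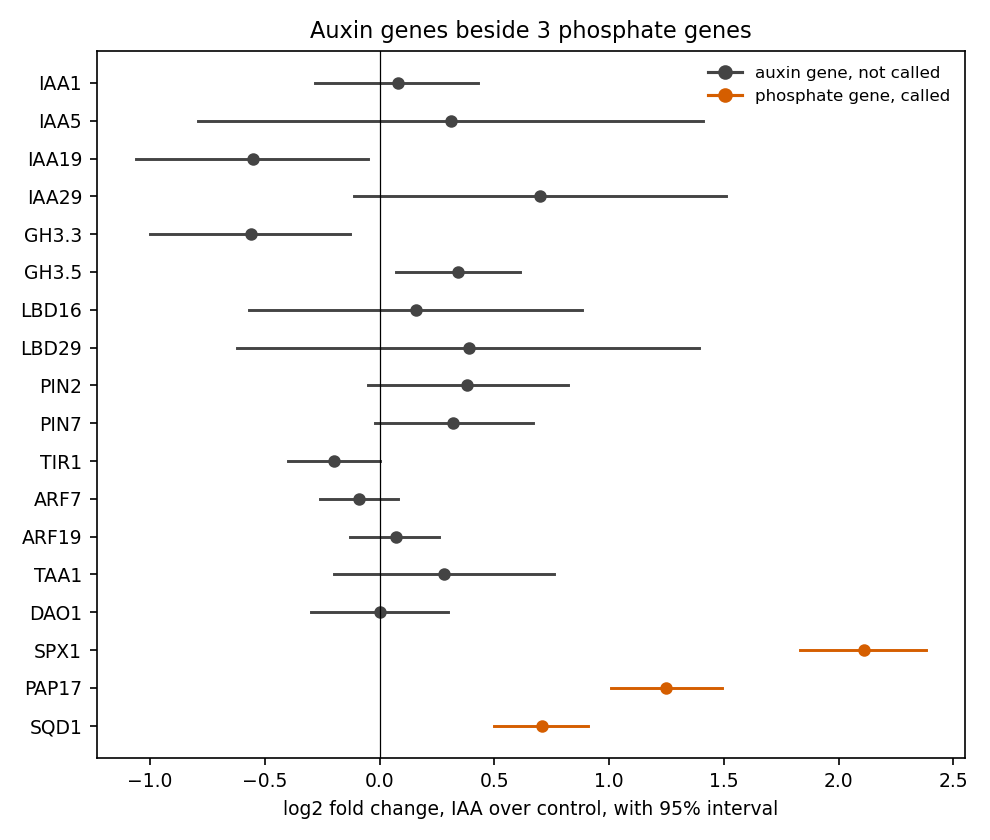
Log2 fold change of IAA over control with its 95% interval for 15 auxin genes (grey), none of them called, beside 3 called phosphate genes (orange). The grey intervals of ARF7, ARF19, TIR1, IAA1 and DAO1 are short and near 0, those of IAA5, IAA29 and LBD29 are wide, and the orange intervals begin at 0.50 (SQD1), 1.01 (PAP17) and 1.83 (SPX1).

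Outside the auxin lists, called genes linked to auxin by name or enzyme were few. AT1G80360 (VAS1), an aminotransferase that turns the IAA precursor indole-3-pyruvate back into an amino acid, measured 54.3 and 51.2 CPM in the control and 86.7 and 89.6 CPM with IAA (0.74 ± 0.07, adjusted p = 0.0217). AT5G35735, which the annotation calls an auxin-responsive family protein, measured 65.9 and 63.8 CPM in the control and 95.5 and 95.3 CPM with IAA (0.56 ± 0.07, adjusted p = 0.0414), among the smallest changes of any called gene. Both have groups without overlap. They were singled out after their values were seen. The cell cycle gene CYCB1;1 (AT4G37490) had 7.1 and 8.46 CPM in the control and 6.54 and 7.97 CPM with IAA (-0.10 ± 0.24), and the root stem cell factor PLT2 (AT1G51190) had 2.01 and 1.31 CPM in the control and 2.77 and 2.94 CPM with IAA (0.78 ± 0.28, adjusted p = 0.29). Of 25 cell cycle genes 0 were called, 2 were higher at an unadjusted p under 0.05, DESeq2 called 0, and the median was 0.10. Reference genes gave 1080 and 1060 CPM in the control and 839 and 892 CPM with IAA for ACT2 (AT3G18780) (-0.31 ± 0.08, adjusted p = 0.2) and 77.5 and 87.1 CPM in the control and 76.6 and 78.6 CPM with IAA for PP2AA3 (AT1G13320) (-0.09 ± 0.08). UBQ10 (AT4G05320) had 94.1 and 319 CPM in the control and 83.0 and 309 CPM with IAA, a more than 3-fold difference within each group.

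In the sulfur list 0 of 13 genes were called, 7 were higher at an unadjusted p under 0.05 and DESeq2 called 7, with a median of 0.55 and both IAA libraries above the controls in 84.6%. SDI2 (AT1G04770) had 24.4 and 19.8 CPM in the control and 40.0 and 32.9 CPM with IAA (0.72 ± 0.14, adjusted p = 0.125), and APR1 (AT4G04610), which reduces activated sulfate, had 93.2 and 69.9 CPM in the control and 136 and 124 CPM with IAA (0.68 ± 0.14, adjusted p = 0.147). LSU2 (AT5G24660) and SDI1 (AT5G48850), both induced by sulfur shortage, had 0.95 ± 0.21 (adjusted p = 0.157) and 0.87 ± 0.21 (adjusted p = 0.181). In the touch and wounding list 0 of 20 genes were called, 8 were higher at an unadjusted p under 0.05 and DESeq2 called 4, with a median of 0.75. Its genes with the smallest p were SZF1 (AT3G55980), a zinc finger protein (0.97 ± 0.18, adjusted p = 0.125), the calmodulin-like CML38 (AT1G76650) (1.5 ± 0.38, adjusted p = 0.197), WRKY53 (AT4G23810) (1.2 ± 0.31, adjusted p = 0.202) and STZ (AT1G27730) (0.98 ± 0.26, adjusted p = 0.202).

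In the clock list RVE2 was the 1 of 22 genes called. CCA1 (AT2G46830), a morning gene of the clock, had 61.6 and 54.3 CPM in the control and 40.9 and 42.9 CPM with IAA (-0.47 ± 0.21, adjusted p = 0.382). RVE1 (AT5G17300) had -0.80 ± 0.26 (adjusted p = 0.262), and the clock genes PRR3 (AT5G60100), FKF1 (AT1G68050) and PRR7 (AT5G02810) had 0.64 ± 0.10 (adjusted p = 0.0729), 0.53 ± 0.14 (adjusted p = 0.212) and 0.30 ± 0.09 (adjusted p = 0.221). The list had 6 genes higher and 7 lower at an unadjusted p under 0.05. In the salicylate list UGT74F2 was the 1 of 15 genes called. CBP60G (AT5G26920) had 0.76 ± 0.20 (adjusted p = 0.202), UGT74F1 (AT2G43840) 0.69 ± 0.21 (adjusted p = 0.245), EDS1 (AT3G48090) 0.41 ± 0.17 (adjusted p = 0.334) and NPR3 (AT5G45110) 0.15 ± 0.07 (adjusted p = 0.415).

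The lists of nitrate (13 genes), iron (12), jasmonate (16), abscisate (12), cytokinin (15), flavonoid (20), glucosinolate (22), root hair (17) and reference genes (10) held 0 called genes. Their medians ran from -0.20 for nitrate to 0.38 for flavonoid genes. At an unadjusted p under 0.05 the nitrate list had 0 higher and 6 lower (DESeq2 called 1 lower), the flavonoid list 8 higher and 1 lower (DESeq2 3 higher) and the glucosinolate list 8 higher and 0 lower (DESeq2 5 higher). The root hair list had 4 higher and 0 lower (DESeq2 2 higher), with both IAA libraries above the controls in 76.5%. Each of the remaining lists had at most 3 genes lower and 1 higher at that level, and DESeq2 called 1 higher (abscisate and cytokinin) and 2 lower (abscisate), 1 lower (jasmonate) and 1 lower (reference genes). Of 60 genes whose symbol begins with WRKY, 92 with MYB and 61 with NAC 0 were called, although RVE2 (a MYB factor) and TIP (a NAC factor), under other symbols, were. At an unadjusted p under 0.05 WRKY genes had 4 higher and 1 lower, MYB genes 6 and 5 and NAC genes 4 and 3, and DESeq2 called 1, 1 and 3 of them. Of 173 CYP genes 0 were called, 20 were higher and 12 lower at an unadjusted p under 0.05, and 6 were called by DESeq2. The background over all 21355 genes was 1483 higher and 1564 lower at that unadjusted p, and 412 and 355 by DESeq2.

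The MT libraries show how these genes stood under the other treatment, against the same controls. Because both comparisons use these controls, their values are set side by side and no agreement between them is counted. Dose differed between the compounds, 1 nM and 10 nM, so no comparison of potency was made. SPX1 measured 139 and 134 CPM with MT, PS2 121 and 116 CPM, PEPC1 81.5 and 60.4 CPM and SQD1 236 and 216 CPM. In the phosphate lists the test of MT against control called 35 of 63 genes higher and 2 lower, beside 3.99% and 3.65% of all genes. GDPD6 stood at 2.38 and 3.45 CPM and SUS4 at 56.6 and 73.8 CPM with MT, below their IAA libraries, which for GDPD6 were 4.46 and 3.97 CPM and for SUS4 80.0 and 91.9 CPM. The auxin conjugation gene GH3.3 stood at 11.7 and 13.6 CPM with MT. In edgeR's test of MT against IAA, SPX1, PS2, PEPC1, SQD1, GDPD6, SUS4 and GH3.3 were not called, at adjusted p from 0.0945 to 0.354.

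A test of MT against IAA called 37 of 21355 genes, or 0.173%, among them 8 of the 71. The 71 genes were chosen on the same IAA libraries, so the count is given without a reading. Phox2 measured 130 and 134 CPM with MT, near the control and far above IAA, a log2 difference between MT and IAA of 2.23 ± 0.10 (adjusted p = 0.00353). Its highest adjusted p without a library of either group was 0.0199. ATN measured 7.81 and 8.47 CPM with MT (2.19 ± 0.20, adjusted p = 0.0425) and LHCB4.3 111 and 101 CPM (0.73 ± 0.08, adjusted p = 0.0455). These 3 genes fell with IAA and were near the control with MT. SDR3 had 2 and 17 counts and AT5G01881 5 and 1 counts with MT (-5.88 ± 0.66 and -4.96 ± 0.58, adjusted p = 0.0455 and 0.0455), far below their IAA counts. AT5G01880, which overlaps AT5G01881, had 5.29 and 5.05 CPM with MT, and the sum of the pair was 5.43 and 5.07 CPM, against 5.34 and 5.32 CPM with IAA. LHCB2.3 measured 105 and 101 CPM (0.89 ± 0.11, adjusted p = 0.0498), CRK10 142 and 118 CPM (1.08 ± 0.10, adjusted p = 0.0425) and UCP5 82.3 and 92.1 CPM (0.70 ± 0.08, adjusted p = 0.0455) with MT, all above their IAA libraries. The 7 genes other than Phox2 lost this call without 2 or 3 of the 4 libraries, taken 1 at a time, with adjusted p up to 0.246.

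**Figure D5:**
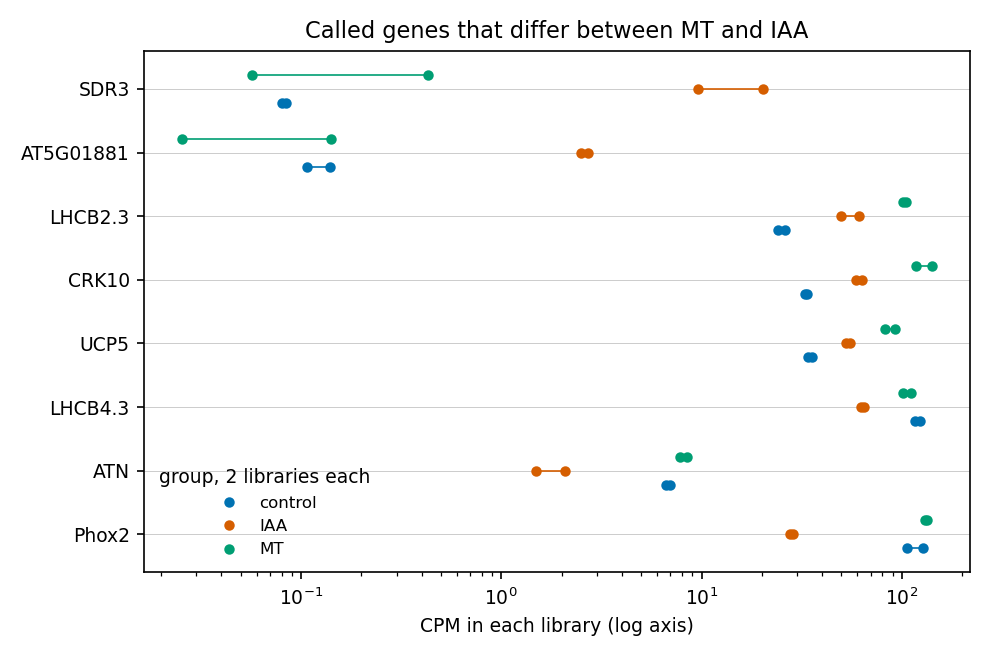
CPM in each library (log axis) of the 8 called genes that also differed between MT and IAA. Blue points are control, orange IAA and green MT libraries, 2 each, joined by lines. For LHCB4.3, ATN and Phox2 the green points lie by the blue ones and away from the orange ones, for SDR3 and AT5G01881 they lie far to the left of the orange ones and apart from each other, and for LHCB2.3, CRK10 and UCP5 they lie beyond the orange ones.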

How the data were processed

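RNA sequencing read counts per gene were analysed as deposited by the authors, in 1 table for all 6 libraries. Per the submitters' processing notes HTSeq 0.6.1, TopHat2 2.0.12, DESeq 1.18.0 and Bowtie2 2.2.3 were among the tools, with no settings stated. Build, annotation and strand setting were not given in any source used, so coordinates and sequences are not printed. Without strand, overlapping genes on either strand can share reads. Of 24267 entries 23606 matched a locus tag of the RefSeq annotation, used for symbols and overlaps, and 351 were new genes of the authors' table.

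Counts were tested with edgeR 4.0.16 (R 4.3.3). Libraries were scaled by TMM, 21355 genes passed filterByExpr, and the quasi-likelihood test used a model of group alone over all 6 libraries, leaving 3 residual degrees of freedom (prior 3.83, common biological coefficient of variation 16.1%). All 6 libraries were fitted so that they share 1 estimate of the spread. Benjamini-Hochberg adjusted p-values over all genes tested are from this test unless another is named, with 0.05 as threshold. CPM use TMM-scaled sizes and are given for replicates 1 and 2 in that order, and values ± SE after a gene are log2 fold changes of IAA over control. Replicates differed beyond counting noise (chi-square over its degrees of freedom 25.6 to 32.8). This does not show whether they are separate biological samples. Each library was counted as a sample in the test. DESeq2 1.42.0 was an alternative, as were other scalings, filters, libraries and a replicate block. The fit was tested on simulated data, and figures were drawn with Python 3.11.15 and matplotlib 3.10.9.

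The comparison and the 30 gene lists (551 entries, 547 loci, 23 symbols not paired with their locus by RefSeq) were chosen with earlier results of these data known. Genes were named by a rule. It took all genes called lower, the 10 called higher with the smallest p, the 10 called genes with the highest CPM, every called list member, and up to 4 uncalled members with the smallest p of lists with a call or a median of at least 0.5. It also took 22 auxin, growth, clock and reference genes, called genes with a called neighbour, called genes with 6 or fewer counts in a group, and the genes of highest or most different share of counts. Of these, 1 gene is not reported here. The other called genes and further list members were named after their values were seen.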

Additional observations from a re-analysis of the deposited data

How the results depend on the processing

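The 71 calls (58 higher, 13 lower) became 70 with relative log expression factors, 80 with upper quartile factors, 99 without a filter, 71 with at least 1 CPM in at least 2 libraries and 77 without new genes. With the control and IAA libraries alone there were 125 (38 lower), with robust empirical Bayes 130 (97 higher, 33 lower), against a 1.5-fold change 6 (5 higher, 1 lower), and with DESeq2 768 (413 higher, 355 lower). Leaving out 1 library at a time gave 15 to 113 calls, 7 to 82 higher and 1 to 31 lower. The total was 16 and 25 with control replicate 1 or 2 left out, 22 and 15 with IAA replicate 1 or 2 left out, and 109 and 113 with MT replicate 1 or 2 left out, where the lone library of a group is assumed to vary like the others. With a replicate block there were 48 calls (41 higher, 7 lower), of which 39 were among the 71. Deviations of same-numbered libraries correlated across genes by 0.0254 (control and IAA), 0.00738 (control and MT) and 0.079 (IAA and MT). Taken over all genes, these correlations cannot settle whether the replicate numbers pair the libraries. Same-numbered control and IAA libraries were 0.985 and 0.977 apart in leading log2 distance, beside 1.424 and 1.054 for the other pairs. For IAA and MT the distances were 0.9575 and 0.768 beside 1.276 and 1.218. For control and MT they were 1.493 and 1.39 beside 1.248 and 1.561. The cause of the changes in the calls was not tested, except that leaving out a library leaves fewer samples.

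DESeq2 called each of the 71, and 68 were shared with the 4-library fit and 69 with robust empirical Bayes. None of the 71 changed direction in any of these fits. Of the phosphate genes 18 were called with either other scaling, 20 without a filter, 19 with 4 libraries, 14 with the replicate block, 5 against a 1.5-fold change and 33 (either direction) with DESeq2. Medians of the phosphate lists stayed above 0, from 0.09 for signalling to 1.05 for phosphatases. No scaling moved the median of all genes by more than 0.024. A description of promoters holding the phosphate motif P1BS was planned and not run, because the build of the deposited counts is not given. Depth limits genes under 1 CPM, where the median 95% interval was 2.75 wide.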

Other observations

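Some genes differed widely between the 2 libraries of a group. Among genes with at least 10 CPM in the higher library, 46 of 13596 differed at least 4-fold between the control libraries, 50 of 13677 between the IAA libraries and 58 of 13705 between the MT libraries. In the control or IAA group together there were 81 such genes. Of these 0 were called in edgeR's test, beside 0.272% of all genes called higher and 0.0609% lower. A wide difference within a group enters the spread that this test uses, so the 0 was nearly fixed in advance. RING1A (AT5G44280), a Polycomb protein gene, had 11.9 and 4480 CPM in the control, 9.06 and 55.1 CPM with IAA and 12.3 and 12.5 CPM with MT. DRT112 (AT1G20340), a plastocyanin gene, had 1610 and 75.3 CPM in the control and 1430 and 1280 CPM with IAA. BRI1 (AT4G39400), the brassinosteroid receptor gene, had 212 and 213 CPM in the control, 21.5 and 213 CPM with IAA and 193 and 19.4 CPM with MT. FAD2 (AT3G12120), a fatty acid desaturase gene, had 758 and 121 CPM in the control and 859 and 9.54 CPM with IAA. IBR10 (AT4G14430), of the conversion of indole-3-butyric acid to IAA, had 66.4 and 63.0 CPM in the control, 54.0 and 3.99 CPM with IAA and 55.2 and 1.06 CPM with MT. The library that stood apart was not the same one in these genes.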
